A study of Mus musculus with 123 samples.

Results

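The cells described here are 11 single-cell libraries, made 3 days after sciatic nerve transection (SNT), that the authors left out of their table of cells without outliers. They were compared with the 59 day-3 libraries that stand in both deposited tables, so that the comparison covers 70 of the 123 libraries of the series. The removed cells were 4 of 22 from the control side and 7 of 48 from the SNT side, and the kept cells were 18 and 41. All 70 day-3 cells came from mice aged 2 months, the F1 offspring of CAST/Eij fathers and C57BL/6 mothers. SNT was made on the right side under ketamine and xylazine, and dorsal root ganglia (DRGs) of the injured side and of the other side, which was the control, were dissociated. The labels name L5 ganglia for the day-3 cells. The study's methods also speak of L5 neurons for the sequenced cells, but name a wider range of lumbar ganglia for the dissection. Single neuronal bodies were picked by hand and amplified with Smart-seq2, which copies polyadenylated RNA over its full length. The rest of the series, used only for reference, was 47 single cells of C57BL/6 mice of both sides, taken 7 days after SNT, and 6 libraries of pooled day-3 cells of the F1 mice. No animal is named for a cell, so all cells of a side stand for 1 sample, and the removal itself rested on a principal component analysis of the same expression values. Differences between removed and kept cells are therefore given as descriptions, with ranges and counts of cells and with no test.

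A DRG neuron lies in an envelope of satellite glial cells, which share gap junctions with each other, buffer potassium and take up glutamate around the cell body. Schwann cells wrap its axon. Satellite glia are known by genes such as Apoe, the lipid carrier of glia, and Fabp7, a fatty acid binding protein of glial cells. After a peripheral nerve is cut, neurons switch on regeneration associated genes (RAGs), among them the transcription factor Atf3, whereas glia react with changes of their own. Cell numbers were not measured, so less RNA of a cell type and fewer of its cells in what was picked cannot be told apart.

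Levels are given as CPM, each gene's share of the counts of a library times 1000000. The removed cells held 223967 to 666521 counts (median 389656) and the kept cells 277390 to 1849130 (median 1178200). Among the removed cells, 6832 to 9525 genes (median 7514) stood above 10 CPM, against 8058 to 9185 (median 8418) among the kept cells. After every cell was thinned to 200000 counts, 8686 to 11421 genes (median 9179) were detected in removed cells. In kept cells 9704 to 11264 (median 10393) were detected. On the principal component that separated the cells best, all 11 removed cells lay at 81.5 or above and every other library at 26.9 or below. The sample descriptions carry a number whose meaning is not stated. None of the 15 control-side cells numbered below 58 and 4 of the 7 numbered from 58 on were removed, and none of the 29 SNT-side cells numbered below 37 and 7 of the 19 from 37 on were removed, all 7 between 37 and 49. The part of this order in the differences was not tested. The study's methods describe the F1 mice as female, yet the Y-linked gene Ddx3y was counted in 70 of 70 day-3 cells and Xist reached at most 7.73 CPM. Ddx3y and Xist were chosen after their values were seen.

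**Figure D1:**
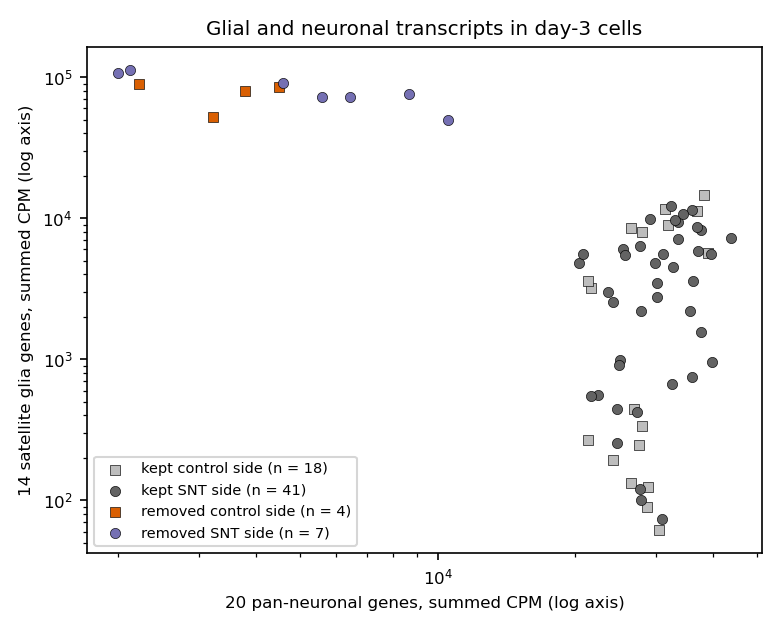
Summed CPM of 14 satellite glia genes (vertical, log axis) against summed CPM of 20 pan-neuronal genes (horizontal, log axis), with 1 point for each day-3 cell, squares for the control side and circles for the SNT side. The 11 removed cells lie at 49880 glial CPM or above and at 10515 neuronal CPM or below, apart from all 59 kept cells.

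The summed level of satellite glia transcripts was higher in every removed cell than in any kept cell. The summed level of the 14 satellite glia genes was 49880 to 112399 CPM (80727 ± 19610, SD, n = 11) in removed cells and 61.2 to 14602 CPM (4316 ± 4017, SD, n = 59) in kept cells, 18.7 times as high on average. The nearest kept cell was control-side cell 18 at 14602 CPM, and the nearest removed cell was SNT-side cell 40 at 49880 CPM. Day-7 cells reached at most 14167 CPM and the 6 libraries of pooled neurons 5178 to 15251 CPM. Thus no other library of the series came near the removed cells by this measure.

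Apoe stood at 68112, 34466, 64164 and 54945 CPM in removed control-side cells 16, 17, 20 and 22, at 30201 to 82496 CPM (median 56691) in the 7 removed SNT-side cells, and at 20.2 to 10781 CPM (median 2204) in kept cells. Fabp7 stood at 3181, 2686, 2340 and 4226 CPM in the removed control-side cells, at 403 to 3627 CPM (median 1162) on the SNT side and at 0 to 528 CPM (median 51.2) in kept cells. For Apoe the groups did not overlap, whereas for Fabp7 SNT-side cells 38 and 40 lay within the range of the kept cells. Sox10, the transcription factor that defines the glial lineage of the neural crest, stood at 131 to 343 CPM against 0 to 41.3 CPM. Of the 14 genes 13 were higher in removed cells by a log2 ratio above 1, with a median of 4.24, and in 12 of them every removed cell lay above every kept cell. The exception was S100b, which differed by a log2 ratio of 0.19.

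Genes of other cells were checked in the same way. Among myelinating Schwann cell genes Mbp, a protein of compact myelin, stood at 764 to 1754 CPM in removed and 0.852 to 1239 CPM in kept cells, and Mal at 271 to 1019 CPM against 0 to 366 CPM. Pmp22 was level (log2 ratio 0.04), and Ncmap and Mobp were at 0 in all 11 removed cells. The sum of the Schwann cell list was 2358 to 5042 CPM against 150 to 5521 CPM (median 1399), with 4 of 6 measured genes higher, none lower and a median log2 ratio of 3.104. Within the SNT side the 7 removed cells (2734 to 5042 CPM) lay above every kept cell (150 to 2616 CPM). Within the control side the removed cells (2358 to 3273 CPM) lay inside the range of the kept cells (544 to 5521 CPM). Macrophage genes summed to 0 to 315 CPM (median 9.03), with the highest value in SNT-side cell 41, and the sums for endothelial, erythrocyte and neutrophil genes were at most 10.3, 76.1 and 24.7 CPM. The kept cells had a neutrophil sum with a median of 0 and a highest value of 4067 CPM. Their macrophage sum was 0 to 371 CPM (median 12.4), and their erythrocyte sum was at most 94.1 CPM. Their endothelial sum was 0 to 151 CPM, with a median of 39.4 CPM that lay above every removed cell. The endothelial genes Pecam1 and Cldn5 were at 0 in all 11. Of the fibroblast list 5 of 6 measured genes were higher and 1 lower, with a sum of 255 to 858 CPM (median 564) against 4.34 to 767 CPM (median 78.5). The collagen gene Col1a2 (47.3 to 312 against 0 to 70.4 CPM) and the proteoglycan gene Lum (82.1 to 476 against 0 to 45.3 CPM) were higher, whereas Dcn was lower by a log2 ratio of -2.56 and the defining gene Pdgfra stood at 2.44 CPM or less.

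Transcripts of neurons were still present in the removed cells, but at a lower share. The sum of 20 pan-neuronal genes was 1997 to 10515 CPM (4876 ± 2760, SD, n = 11) in removed cells and 20367 to 43828 CPM (29952 ± 5672, SD, n = 59) in kept cells, 6.14 times as high in the kept cells, and the groups did not overlap. Tubb3, the neuronal beta-tubulin, stood at 82.4 to 1810 CPM against 1610 to 11345 CPM. Uchl1, an abundant neuronal deubiquitinase, stood at 47.4 to 1160 CPM against 1534 to 4210 CPM. Of the 20 genes 19 were lower by a log2 ratio beyond 1. The exception was Nefm, a neurofilament subunit, at -0.96.

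Of 10556 genes that averaged 10 CPM or more in removed or in kept cells, 2031 (19.2%) were higher in removed cells by a log2 ratio of mean CPM + 1 above 1 and 3014 (28.6%) were lower by as much, with a median over all genes of -0.27. Beyond a log2 ratio of 2 there were 1043 higher (9.88%) and 1246 lower (11.8%). In 255 genes (2.42%) every removed cell lay above every kept cell, and in 160 (1.52%) every removed cell lay below. Of those 255 genes 12 stood on the lists of satellite glia and Schwann cell markers. The median shift of -0.27 moved with the scaling. With Lars2 and Apoe taken out of the totals and of the genes, it was -0.02 over 10754 genes, of which 2503 were higher (23.3%), and the share of higher genes among those past the limit went from 40.3% to 50.3%.

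In these totals 3 transcripts held 11.3% to 41.6% of all counts of a removed cell and 0.468% to 7.45% of a kept cell. These were Lars2, the leucyl-tRNA synthetase of mitochondria, Apoe, and Gm20594, a predicted gene that was chosen after its values were seen. Lars2 took 22.1%, 35.2%, 18.7% and 13.7% of the counts of removed control-side cells 16, 17, 20 and 22. In the removed SNT-side cells its share was 0.312% to 6.89% (median 2.85%), and in kept cells 0.221% to 6.44% (median 0.557%). Lars2 thus marked the removed cells of the control side, each of which lay above every kept cell, whereas 1 of the 7 on the SNT side did so, and day-7 cells reached 142211 CPM, or more than removed control-side cell 22.

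Gm20594 did not overlap between the groups on either side. It stood at 33115, 30412, 25669 and 50189 CPM in removed control-side cells 16, 17, 20 and 22, and at 20212 to 134190 CPM (median 37457) in the removed SNT-side cells. The kept cells held 692 to 4322 CPM (median 1899) and the pooled libraries 1473 to 3887 CPM. The log2 ratio was 4.39, without Lars2 and Apoe 4.60 and after quantile normalization 2.61. The highest value was that of SNT-side cell 41.

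The sequence of Gm20594 is given because it is close to that of a mitochondrial RNA. In GENCODE M21 (build GRCm38) the gene is a single exon of 449 bases on the plus strand, chr6:79817916-79818364. Its bases 1 to 435 align to bases 645 to 1077 of mt-Rnr2, the mitochondrial 16S ribosomal RNA, with 88.4% identity over 439 aligned positions and a shared run of 65 bases. A stretch of 30 bases across the start of that run is printed for both, 5′ to 3′, with capitals for the 29 bases that are identical and lower case for the base that differs. The stretch lies at chr6:79818273-79818302 in Gm20594 and at chrM:2092-2121 in mt-Rnr2, both on the plus strand of GRCm38.
Gm20594: GTCTCTTATtTTTAATCAGTGAAATTGACC
mt-Rnr2: GTCTCTTATcTTTAATCAGTGAAATTGACC
Among all GENCODE M21 transcripts the shared run of 65 bases occurs in these 2 genes only. The deposited tables hold 0 genes of the mitochondrial genome, and reads from Gm20594 and from mt-Rnr2 cannot be told apart in them. Lars2 shared at most 12 bases in a row with mt-Rnr2 on the same strand and 14 with the other mitochondrial ribosomal RNA, mt-Rnr1. Nuclear ribosomal RNA was not compared with Lars2, and the origin of the Lars2 reads was not tested.

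**Figure D2:**
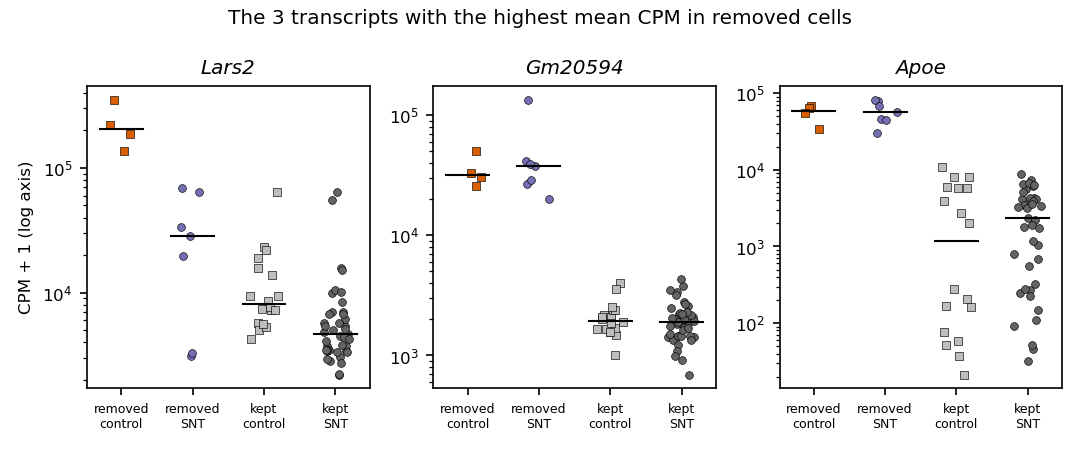
CPM + 1 (log axis) of Lars2, Gm20594 and Apoe in each removed and kept day-3 cell by side, with 1 point for a cell and a line at the median. Gm20594 and Apoe lie above every kept cell in all 11 removed cells, whereas Lars2 does so in the 4 control-side cells and in 1 SNT-side cell.

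The 20 genes with the highest ratios in removed cells formed a mixed group, in which 3 (Gja1, Cdh19 and Ednrb) stood on the glial lists. These lists are short, and a gene outside them can be glial too, as Qk is. They had to lie above the upper quartile of the kept cells in at least 8 of 11 removed cells. Taking out Lars2 and Apoe left 19 of the 20 in place, with Ednrb replaced by Lect1. Their log2 ratios ran from 4.55 to 5.17.

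Several are genes of lipid and small molecule handling. Aspa, the enzyme that splits N-acetylaspartate into aspartate and acetate, stood at 464, 395, 411 and 628 CPM in the removed control-side cells, at 377 to 596 CPM (median 455) in the removed SNT-side cells and at 0 to 61.1 CPM (median 9.10) in kept cells. With 467 ± 87.3 CPM (SD, n = 11) its level was among the most even of these genes. Mfsd2a, a carrier of lysophospholipids with long-chain fatty acids, stood at 57.3 to 727 CPM against 0 to 51.4 CPM. Slc43a3, a purine nucleobase carrier, stood at 190 to 755 CPM against 0 to 73.3 CPM. Ugt1a6a, a glucuronosyltransferase, stood at 90.3 to 408 CPM against 0 to 39.8 CPM, but it shares exons with other genes of the Ugt1a cluster, so its own part is uncertain.

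A further set acts at the cell surface and in the matrix. Fbln5, an elastic fibre protein, stood at 1449, 756, 2143 and 1032 CPM in the removed control-side cells, at 1014 to 3080 CPM (median 2424) in the removed SNT-side cells and at 0 to 301 CPM (median 54.6) in kept cells. F3, the tissue factor that starts coagulation, stood at 134 to 547 CPM against 0 to 61.1 CPM. Gpm6b, a membrane proteolipid, stood at 2658 to 5544 CPM against 0 to 699 CPM. Ackr3, a scavenging receptor for the chemokine Cxcl12, stood at 4.12 to 148 CPM against 0 to 13.4 CPM, with SNT-side cell 41 within the kept range. Regulators of transcription and RNA were also in this group. Qk, an RNA-binding protein of glia, stood at 713 to 1931 CPM against 0 to 147 CPM, Tcf7l2, a transcription factor of Wnt signalling, at 67.2 to 192 CPM against 0 to 19.4 CPM, and Heyl, an effector of Notch signalling, at 29.9 to 400 CPM against 0 to 30.6 CPM. In Qk and Tcf7l2 the groups did not overlap, and in Heyl 10 of 11 removed cells lay above every kept cell.

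Tyrp1, an enzyme of melanin synthesis in pigment cells, had the highest ratio of the 20 and was very uneven. It stood at 101, 292, 112 and 288 CPM in the removed control-side cells and at 27 to 1819 CPM (median 231) on the SNT side, with SNT-side cells 34 and 37 at 1819 and 1599 CPM. Kept cells ranged from 0 to 145 CPM with a median of 0, and 6 of 11 removed cells lay above them all. The log2 ratio was 6.97 on the SNT side alone and 2.65 on the control side alone. Of other genes of pigment cells, Dct stood at 2.06 CPM or less and Pmel at 0 in 9 of 11 removed cells, at 24.5 CPM in SNT-side cell 38 and at 10.3 CPM in SNT-side cell 40. Dct and Pmel were chosen after their values were seen, and no list of pigment cell genes was compared. Whether the removed cells held RNA of pigment cells was not tested.

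**Figure D3:**
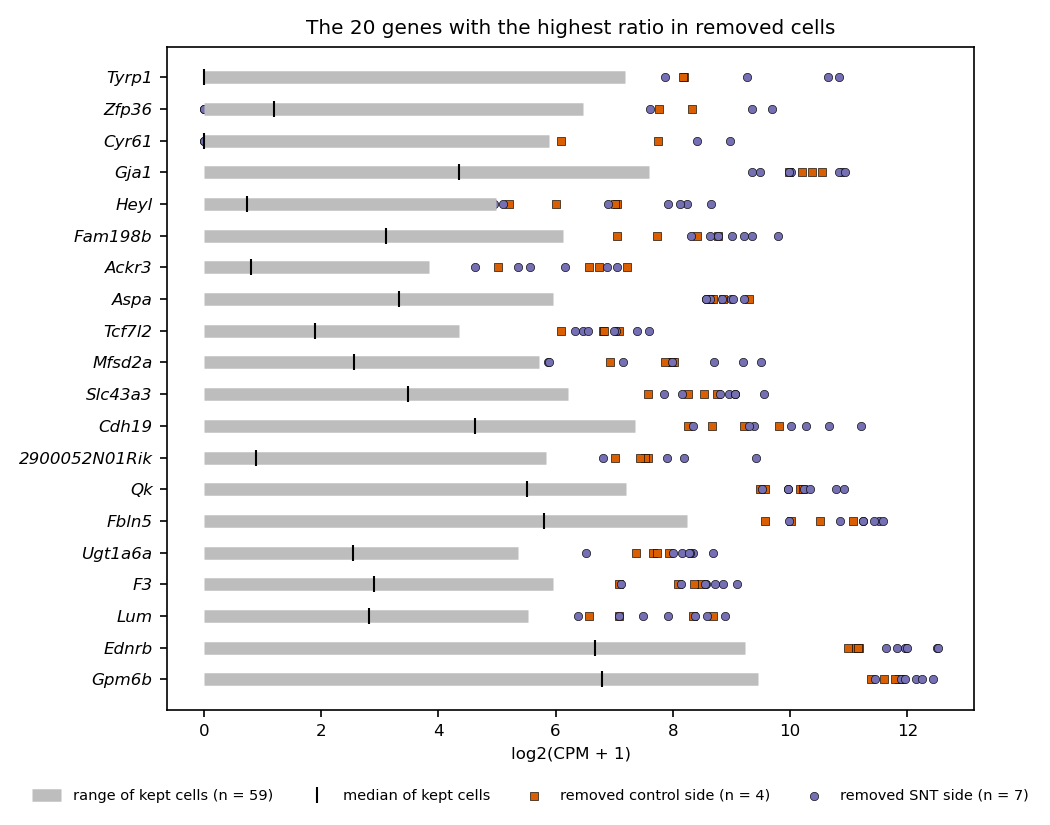
log2(CPM + 1) of the 20 genes with the highest ratio of removed over kept cells, with squares and circles for the removed cells of each side, a grey bar for the range of the 59 kept cells and a tick at their median. Most removed cells lie beyond the grey bars, whereas Tyrp1, Zfp36 and Cyr61 are split, with part of the removed cells beyond the bar and part inside it.

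The 20 genes with the lowest ratios held genes of neuronal signalling beside metabolic enzymes. Rgs4, a regulator of G protein signalling that is abundant in neurons, stood at 43.7, 85.9, 112 and 41.1 CPM in the removed control-side cells, at 0 to 43.6 CPM (median 8.0) on the SNT side and at 0.957 to 7790 CPM (median 1924) in kept cells. Asns, the asparagine synthetase, stood at 1.5 to 41.1 CPM against 148 to 1304 CPM, and Syngr3, a synaptic vesicle protein, at 0 to 26.2 CPM against 90.5 to 821 CPM. In both, every removed cell lay below every kept cell. Kcnk12, a potassium channel subunit, was at 0 counts in all 11 removed cells and was counted in 55 of 59 kept cells, at a mean of 35.03 CPM. Set against a limit of 3 counts over the 4281386 counts of the removed cells together, it was at least 50.0-fold lower. Ass1, Ina and Ctxn3 were at or near 0, with at most 4.46 CPM in any removed cell. Ina, Ctxn3, F2rl2 and Tmem151b lie across genes on the opposite strand, from which reads without strand cannot be separated.

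Gene groups differed in how far they stood from the median of all genes. The extracellular matrix of the endoneurium, the tissue around nerve fibres and their glia, was higher throughout, with 11 of 11 measured genes above a log2 ratio of 1 against 19.2% of all genes, and a median of 3.63 against -0.27. Their sum was 7927 to 13474 CPM in removed and 16.7 to 3449 CPM in kept cells. Nid1, the basement membrane linker nidogen, stood at 137 to 752 CPM against 0 to 109 CPM, and Lamb1, a laminin chain, at 193 to 672 CPM against 0 to 103 CPM. Vim, which is also on this list, is an intermediate filament of glia and mesenchyme inside the cell and not a matrix protein. It stood at 1830 to 4831 CPM against 2.18 to 1281 CPM, and the sum was not made without it. Col5a3 was the least separated, at 19.4 to 1233 CPM against 0 to 448 CPM.

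Genes of lipid transport and cholesterol synthesis were mixed, with 10 of 20 above a log2 ratio of 1, 1 below -1 and a median of 1.03. Apoe and Fabp7 belong to this list and to that of satellite glia. The desaturase genes Scd1 (1505 to 5388 against 25.3 to 1464 CPM) and Scd2 (2224 to 4346 against 223 to 1427 CPM) did not overlap. Cyp51, the sterol demethylase, stood at 615, 649, 764 and 198 CPM in the removed control-side cells and at 141 to 1033 CPM (median 232) on the SNT side, against 15.6 to 241 CPM in kept cells. The steps Fdft1 (log2 ratio -0.02) and Sqle (0.57) lay within the limit, and Clu, a lipid carrier of neurons and glia, was lower (-3.18). Of interferon and antigen presentation genes 5 of 7 were higher, led by Ifitm3 (141 to 402 against 0 to 80.3 CPM) and B2m, the light chain of class I molecules (357 to 947 against 0.789 to 390 CPM), while H2-D1 was level at -0.25.

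Among genes that every cell uses, those of ribosomes and of oxidative phosphorylation stayed near the median of all genes. Cytosolic ribosomal protein genes had a median log2 ratio of -0.03, with 0 of 78 above 1 and 1 below -1, and their sum was 9123 to 16136 CPM against 6836 to 19381 CPM. Subunits of oxidative phosphorylation had a median of -0.22, with 1 of 81 above and 6 below. Glycolysis genes were lower as a sum, at 4684 to 7346 CPM against 9575 to 19094 CPM with no overlap. Of 16 genes 11 were lower, including Aldoa, Gapdh, Pgam1 and Pfkp, in each of which every removed cell lay below every kept cell, whereas Aldoc and Ldhb, the brain form of aldolase and the heart form of lactate dehydrogenase, were higher by 2.18 and 2.14. Chaperones were lower as a sum as well, at 1921 to 4886 CPM against 9261 to 14187 CPM with no overlap. Hsp90aa1 stood at 114 to 837 CPM against 1122 to 3750 CPM, Hspa8 at 807 to 1749 CPM against 3456 to 8035 CPM and Hsp90ab1 at 437 to 1626 CPM against 2152 to 4562 CPM, and 4 of 9 measured genes of the list were lower and 1 was higher.

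Neuronal groups lay at the other end. Of synaptic vesicle genes 16 of 18 were lower by a log2 ratio beyond 1 against 28.6% of all genes, with a median of -2.57. Of voltage-gated sodium channel genes 8 of 10 were lower (median -2.15), and of axonal transport and cytoskeleton genes 19 of 24 (median -1.69). Kif5a, a kinesin of axonal transport, stood at 13.8 to 223 CPM against 249 to 1444 CPM, and Syn1, a synaptic vesicle phosphoprotein, at 6.12 to 121 CPM against 233 to 985 CPM. Of the genes of nonpeptidergic nociceptors (NP) 7 of 7 were lower, and of those of peptidergic nociceptors (PEP) 6 of 7. The exception among PEP genes was Kit, a receptor tyrosine kinase, at 183 to 865 CPM against 0 to 553 CPM. Ntrk2, the BDNF receptor that was listed for large myelinated (LM) neurons, stood at 1362, 866, 1186 and 827 CPM in the removed control-side cells, at 424 to 1852 CPM (median 1641) on the SNT side and at 0.665 to 371 CPM (median 53.4) in kept cells, with no overlap. Ntrk2 is also expressed in glia, so it names no neuron subtype here. Of the LM list 3 of 8 genes were higher and 2 lower. Its sum was 2012 to 4300 CPM (median 3050) against 40.9 to 10089 CPM (median 377), with 11 of 11 removed cells above the median of the kept cells. The list holds Ntrk2 and also Ldhb, named above among the glycolysis genes, so its sum does not measure LM neurons alone. Of the genes of C-LTMR neurons, the low-threshold mechanoreceptors with thin axons, 3 of 4 had lower means, and their sum in kept cells had a mean of 405 CPM and a median of 57.3 CPM. With medians over cells the log2 ratio of that sum went from -2.40 to 0.45, and 10 of 11 removed cells lay above the kept median.

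**Figure D4:**
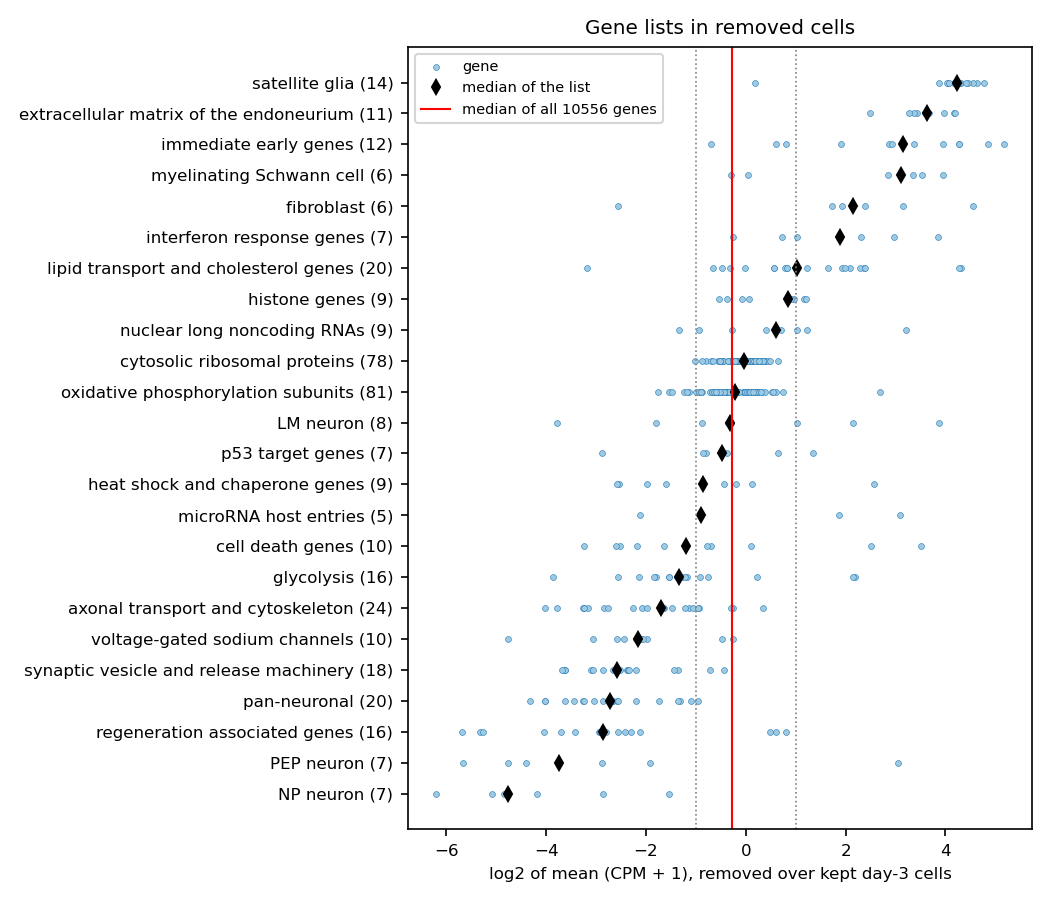
log2 ratio of mean CPM + 1, removed over kept day-3 cells, for every measured gene (circles) of each list with at least 5 such genes, with a diamond at the median of the list, a red line at the median of all 10556 genes and dotted lines at -1 and 1. Satellite glia, matrix and immediate early genes lie to the right, and neuronal lists and RAGs to the left.

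Immediate early genes, which cells switch on within minutes of a stimulus without new protein, divided the removed cells. Of 12 genes 9 were higher by a log2 ratio above 1 and none lower, against 19.2% and 28.6% of all genes, with a median of 3.153. The log2 ratio of their sum was 3.341 with means and 1.87 with medians over cells. Fos stood at 814, 0, 17.9 and 1457 CPM in removed control-side cells 16, 17, 20 and 22, at 6805, 5229 and 968 CPM in SNT-side cells 34, 37 and 38, and at 7.5 to 121 CPM in the other 4. Kept cells reached 661 CPM, so that 5 removed cells lay above all of them and 6 lay inside their range. These 5 cells, chosen after their values were seen, were also the 5 highest removed cells for Junb, Egr1, Ier2, Dusp1 and Zfp36. Egr1 stood at 296 to 1848 CPM in the 5 and 0 to 35.9 CPM in the 6, and Ier2 at 154 to 460 CPM and 0 to 7.7 CPM.

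Thus Zfp36, an RNA-binding protein that destabilizes messages, and Cyr61, a matrix-associated signalling protein, stood among the 20 highest ratios through high values in the same cells. Without the 5 cells the log2 ratio went from 4.85 to 0.31 for Zfp36 and from 4.81 to 0.09 for Cyr61. Nr4a1, an orphan nuclear receptor of the early response, went otherwise. It stood at 420, 260, 482 and 791 CPM in the removed control-side cells, at 137 to 762 CPM (median 288) on the SNT side and at 0 to 105 CPM (median 10.9) in kept cells, so that it was high in all 11 whether Fos was high or not. The 5 cells came from both sides, 2 from the control and 3 from the SNT side.

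Of 9 measured nuclear long noncoding RNAs 3 were higher, 1 was lower and 5 lay within the limit, with a median of 0.60. In SNT-side cells 38, 40 and 41, chosen after their values were seen, Malat1, an abundant nuclear RNA, stood at 25755, 25272 and 20859 CPM, against at most 9919 CPM in the other 8 removed cells and 17249 CPM in kept cells. Kcnq1ot1, the imprinted antisense RNA of the Kcnq1 locus, stood at 4229, 5293 and 2265 CPM in the same cells, and at most 1262 CPM in kept cells, with SNT-side cell 30 next at 1706 CPM. Meg3, an imprinted RNA of neurons, stood at 3535, 4396 and 2960 CPM there, at 13.4 to 137 CPM in the removed control-side cells and at 1.94 to 2820 CPM in kept cells. Cell 40 also held the highest pan-neuronal sum of the removed cells (10515 CPM) and the most genes above 10 CPM (9525).

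Cell death genes gave no common direction, with 2 of 10 measured genes higher and 5 lower. Casp8, the initiator caspase of death receptors, stood at 29.3 CPM in control-side cell 17, at 56.9 and 65.9 CPM in SNT-side cells 33 and 41, and at 0 in 6 of 11, against at most 5.22 CPM in kept cells. Of 12 proliferation genes 2 reached the 10 CPM limit, with Rrm2, a subunit of ribonucleotide reductase, at 0 to 44.3 CPM and Pcna, the sliding clamp of DNA replication, at a log2 ratio of 0.30. Of p53 target genes 1 of 7 was higher and 1 lower, and of histone genes 2 of 9 were higher and none lower. Of microRNA entries 2 of 5 were higher and 1 lower, and no small nucleolar RNA reached the limit. Of pericyte and smooth muscle genes Notch3 (log2 ratio 2.91) and Pdgfrb (2.17) were higher and Rgs5 was lower (-6.07).

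The study asked how neurons answer to SNT, and the removed cells hold both sides, so RAGs were compared by side within them. Of 16 RAGs 13 were lower in removed than in kept cells by a log2 ratio beyond 1 and none was higher, against 28.6% and 19.2% of all genes, with a median of -2.86 against -0.27. The log2 ratio of their sum was -1.16 between control-side cells alone and -2.75 between SNT-side cells alone. Atf3 stood at 26.9, 17.2, 71.4 and 44.8 CPM in the removed control-side cells and at 12 to 255 CPM (median 82.2) in the removed SNT-side cells. In kept cells its median was 8.75 CPM on the control side (0 to 75.7 CPM) and 1696 CPM on the SNT side (0.650 to 4436 CPM). All 7 removed SNT-side cells therefore lay below the median of the kept cells of their side, and 4 of the 7 above every removed control-side cell.

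Sprr1a, a small proline-rich protein that promotes axon growth, stood at 33.6, 17.2, 161 and 44.8 CPM in the removed control-side cells and at 8.0 to 478 CPM (median 142) in the removed SNT-side cells, with medians of 2.46 and 1970 CPM in kept cells of the control and SNT sides. Gal, the neuropeptide galanin, stood at 58.8, 25.8, 250 and 48.6 CPM and at 5.13 to 179 CPM (median 32.1), with medians of 5.83 and 1385 CPM in kept cells. In Sprr1a the removed cells of both sides lay between the medians of the 2 kept groups, and in Gal they did so with the exception of SNT-side cell 40, at 5.13 CPM. Gap43, a protein of growth cones, stood at 11.2 to 103 CPM on the control side and at 24 to 420 CPM on the SNT side of the removed cells.

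As a log2 ratio of SNT over control side, the median over the 16 RAGs was 1.28 in removed cells and 4.46 in kept cells. Among removed cells 9 of the 16 were above 1 and 1 below -1, against 25.3% of all genes above and 5.29% below. Among kept cells 16 of 16 were above 1, against 5.82% of all genes above and 6.07% below -1. Whether the RAGs differ from other genes in this was not tested. The exception below -1 was Anxa1 (-3.20), with a mean that rested on 58 CPM in control-side cell 20. Jun, which joins Atf3 in the injury response and is an early gene as well, stood at 2173 and 1179 CPM in SNT-side cells 34 and 37 and at 381 CPM or less in the removed control-side cells.

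**Figure D5:**
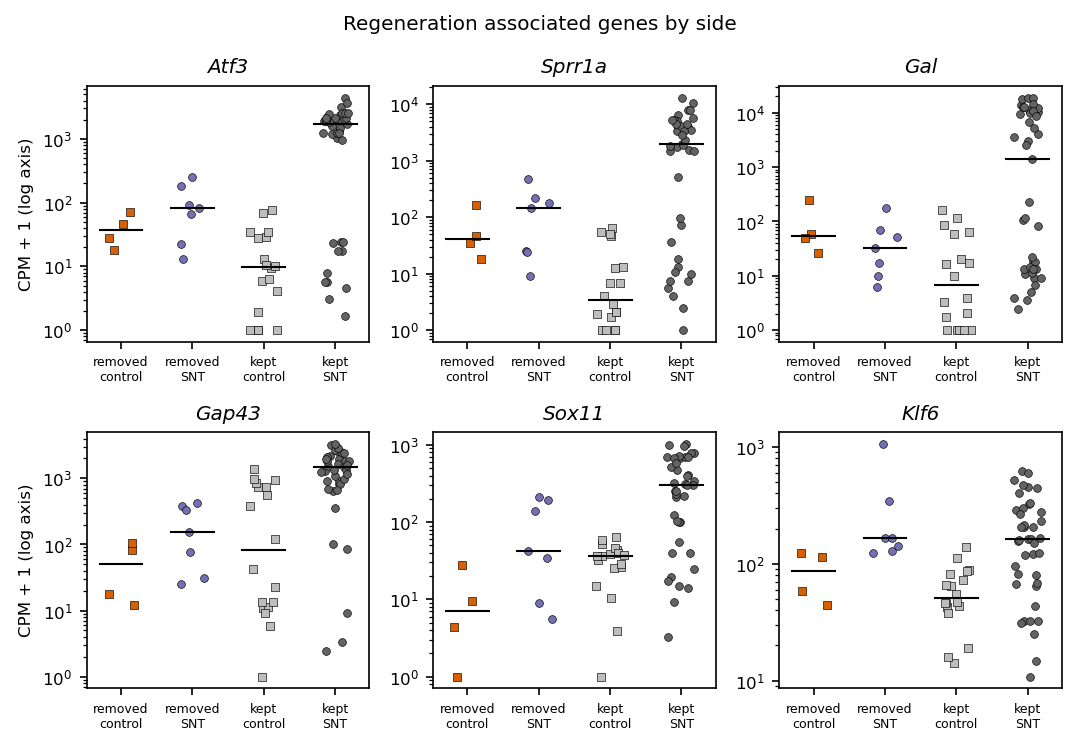
CPM + 1 (log axis) of 6 RAGs in each removed and kept day-3 cell by side, with 1 point for a cell and a line at the median. The removed SNT-side cells lie below the median of the kept SNT-side cells for Atf3, Sprr1a, Gal, Gap43 and Sox11, while 4 of the 7 lie above it for Klf6.

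Across 9926 genes measured in the removed cells, 126 (1.27%) had every SNT-side cell above every control-side cell, and 32 (0.322%) had every SNT-side cell below. With 4 and 7 cells some genes separate fully by order alone, and the counts were not tested against that share. Lars2 was among the latter. So were Peg12, an imprinted retrogene, at 398, 597, 224 and 205 CPM on the control side and 0 to 26.8 CPM on the SNT side, and Prtg, a surface protein of the immunoglobulin family, at 536, 738, 446 and 450 CPM and at 0 to 158 CPM. Kept cells reached 113 CPM of Peg12 and 224 CPM of Prtg, so that the 4 control-side cells stood above all of them in both. Among the genes higher on the SNT side was Ednrb, an endothelin receptor of glia, at 2023 to 2308 CPM on the control side and 3195 to 5863 CPM on the SNT side. Peg12 and Prtg were chosen after their values were seen. The removed control-side cells also held fewer counts (223967 to 297409) than 6 of the 7 SNT-side cells, and the part of depth and of Lars2 in these differences was not tested.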

How the data were processed

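Single-cell libraries were made with Smart-seq2 and sequenced in reads of 50 bp. Per the submitters' processing notes, CASAVA 1.8.2, Bowtie2, RSEM and build mm9 were used, and per the study's methods RSEM counted reads on RefSeq exons after ribosomal RNA annotations were removed. The deposited values, although named TPM, are expected counts, since library totals differ and most values are whole. The authors' removal of 11 outliers followed scaled principal components of quantile-normalized log values. The deposited tables with and without these cells hold equal values, and where symbols differ between them (27 genes) those of the outlier-free table were taken. Columns of no known sample numbered 0. Gene lengths were not used, so levels of different genes are not compared.

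Counts were divided by library totals (CPM). A gene was measured at a mean of at least 10 CPM in removed or kept cells, and log2 ratios are of mean CPM + 1, called beyond 1. The calculation was checked on simulated data, in which few genes were changed, equally many up and down. That setting does not cover a shift made by a few abundant transcripts. Named genes are those of 32 gene lists, Lars2, and the 20 highest and 20 lowest ratios with at least 8 of 11 removed cells above the 75th or below the 25th percentile of kept cells. Members and lists were chosen with earlier results of these data known. Gene lists hold 13 marker and 19 pathway lists. Principal components used genes above 10 CPM in at least 5 libraries. Depth limits the shallowest cell (223967 counts) most, and copies made in amplification count as reads, so limits cover counting error only. Python 3.11.15, numpy, pandas, blastn and edgeR (for TMM factors only) were used. Alternatives were other scalings, pseudocounts, limits, sides alone, thinning to 200000 counts and each removed cell left out. Some genes of the lists are not reported here.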

Additional observations from a re-analysis of the deposited data

Results flagged for a closer look

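In 6 of 78 groups of removed cells 1 cell lay far from the others by Dixon's criterion, which chance alone gives in about 1 of 20 groups. Among the removed SNT-side cells, cell 33 held 5042 summed CPM of myelinating Schwann cell genes, with the next cell at 3599 CPM, and 3627 CPM of Fabp7, with the next at 1779 CPM. SNT-side cell 41 held 134190 CPM of Gm20594, with the next cell at 41568 CPM. Among the removed control-side cells, cell 16 held 528 summed CPM of microRNA entries, with the next at 464 CPM, cell 22 held 15553 summed CPM of cytosolic ribosomal protein genes, with the next at 10209 CPM, and cell 20 held 1491 summed CPM of interferon genes, with the next at 820 CPM.

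The means of Atf3, Sprr1a and Gal were higher in removed than in kept cells on the control side and lower on the SNT side. Ranges of control-side cells overlapped, at 17.2 to 71.4 against 0 to 75.7 CPM for Atf3. They were 17.2 to 161 against 0 to 63.9 CPM for Sprr1a and 25.8 to 250 against 0 to 164 CPM for Gal. The means of the RAGs Ecel1, Anxa1, Tubb6 and Flrt3 went the same ways. Over all genes, 1922 of the 2031 above a log2 ratio of 1 were higher on both sides. Of the 3014 below -1, 2936 were lower on both sides. The log2 ratio of removed over kept cells for control-side and SNT-side cells was 1.14 and -3.86 for Atf3, 2.09 and -4.23 for Sprr1a, and 1.62 and -6.60 for Gal. The difference between the sides was not tested.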

How the results depend on the processing

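No test was run, so the counts are of genes past a fold. They came to 986 higher and 1736 lower with a limit of at least 50 CPM, and leaving out each removed cell in turn gave 2000 to 2093 higher and 2924 to 3171 lower. The share of higher genes was 40.3% in the main comparison, 30.9% with differences of mean log2 values, 31.5% for control-side cells alone, 36.8% with medians, 46.9% for SNT-side cells alone, 49.6% after quantile normalization, 50.3% without Lars2 and Apoe and 52.5% without glial markers and Lars2. Without Lars2, Apoe and Gm20594, an alternative chosen after seeing the data, 2718 genes were higher and 2313 lower. Further alternatives of that kind gave 2083 and 2992 against the 11 shallowest kept cells, and 1993 and 3070 without the 5 removed cells with high Fos. The sum of endoneurial matrix genes had a log2 ratio of 3.69, of 3.92 without Lars2 and Apoe and of 4.18 on the control side alone. With medians over cells in place of means, the log2 ratio went from -4.0 to 0 for neutrophil genes and from -2.40 to 0.45 for C-LTMR genes. The log2 ratio of Lars2 went from 3.383 to 0.74 after quantile normalization. The causes of these shifts were not tested. The shallowest removed cell (223967 counts) limits what low genes can show. No paired analysis was possible because the replicate numbers only name cells and the results come from no test.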
